A study of Mus musculus with 72 samples.

Results

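Interferon-stimulated genes are the antiviral program that cells switch on when an interferon reaches them, and 39 such genes were followed here in mouse whole blood. They were taken as a fixed list of symbols. For each gene the probe set annotated to that symbol alone was used, and where several were, the one with the highest mean signal over all arrays. Of the 39, 37 had such a probe set and all 37 passed the filter on low signals, out of 12580 genes tested in all. Isg15 and Ifi44 had no such probe set in the annotation used here and were not analysed here.

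The blood came from female Balb/c mice, 9 weeks old at the start, in 3 groups of 15. Lead (Pb), as lead acetate trihydrate, was in the drinking water for 2 weeks. The low dose was 5 µg/mL, the high dose 50 µg/mL and the control water 0 µg/mL. All mice then drank Pb-free water for 2 weeks. RNA was measured at the end of the exposure in 7 control, 15 low-dose and 15 high-dose samples, and at the end of the recovery in 7, 15 and 13. The design asks which transcripts differ with Pb and whether they still differ after it is withdrawn. All groups share sex, strain and bleeding site, and the labels do not say whether the control samples of both collections came from the same mice. The exposed mice gave blood on both occasions, and the tests took the 2 bleeds of a mouse as separate samples.

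Interferons are secreted proteins that bind receptors on most cells and act through JAK kinases. Type I interferon acts on a promoter element called the ISRE through factors that include Stat2 and Irf9, while interferon gamma acts mainly on another called the GAS. The genes switched on make sensors of viral RNA and DNA, enzymes and binding proteins that block viral replication, and factors such as Irf7 and Usp18 that raise or damp the response. In blood, monocytes and plasmacytoid dendritic cells are known for strong responses or strong interferon production, and many of these genes are also transcribed at rest.

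The promoter windows of 5 members named in the results below are shown. No comparison below uses these windows. They run from 250 bases before to 50 bases after the RefSeq start site, on the C57BL/6J reference and not the Balb/c genome. Capitals mark matches to the ISRE letters (GAAA, any 2 bases, GAAA, on either strand, so that TTTC, any 2 bases, TTTC also counts) or to the GAS letters (TTC, any 3 bases, GAA).
Ifit1 promoter, GRCm38.p6 chr19:34640639-34640938, plus strand: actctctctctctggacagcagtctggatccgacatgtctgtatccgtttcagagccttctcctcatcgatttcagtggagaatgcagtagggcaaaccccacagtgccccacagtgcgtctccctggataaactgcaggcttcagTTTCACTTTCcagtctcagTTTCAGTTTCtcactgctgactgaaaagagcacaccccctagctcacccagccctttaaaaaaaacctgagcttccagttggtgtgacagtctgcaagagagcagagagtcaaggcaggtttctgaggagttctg
Rsad2 promoter, GRCm38.p6 chr12:26456403-26456702, minus strand: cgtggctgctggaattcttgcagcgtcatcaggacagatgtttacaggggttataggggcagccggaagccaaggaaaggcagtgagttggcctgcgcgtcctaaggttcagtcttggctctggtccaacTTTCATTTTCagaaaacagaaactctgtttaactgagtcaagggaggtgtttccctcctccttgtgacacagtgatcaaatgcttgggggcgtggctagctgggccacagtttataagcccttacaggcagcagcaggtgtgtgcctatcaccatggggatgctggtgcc
Ifit2 promoter, GRCm38.p6 chr19:34550444-34550743, plus strand: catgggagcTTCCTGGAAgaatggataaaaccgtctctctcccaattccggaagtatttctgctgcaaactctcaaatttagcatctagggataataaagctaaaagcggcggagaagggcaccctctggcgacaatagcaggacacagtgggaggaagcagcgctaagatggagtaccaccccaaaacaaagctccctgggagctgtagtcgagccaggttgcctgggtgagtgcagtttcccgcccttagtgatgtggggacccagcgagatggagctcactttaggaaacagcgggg
Ifi44l promoter, GRCm38.p6 chr3:151762842-151763141, minus strand: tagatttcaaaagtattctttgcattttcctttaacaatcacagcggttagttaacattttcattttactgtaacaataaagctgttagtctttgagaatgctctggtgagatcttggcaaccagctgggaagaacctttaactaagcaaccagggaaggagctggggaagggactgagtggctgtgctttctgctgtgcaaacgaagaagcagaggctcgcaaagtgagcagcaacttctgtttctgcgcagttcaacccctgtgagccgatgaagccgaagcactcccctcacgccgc
Ms4a4c promoter, GRCm38.p6 chr19:11407411-11407710, plus strand: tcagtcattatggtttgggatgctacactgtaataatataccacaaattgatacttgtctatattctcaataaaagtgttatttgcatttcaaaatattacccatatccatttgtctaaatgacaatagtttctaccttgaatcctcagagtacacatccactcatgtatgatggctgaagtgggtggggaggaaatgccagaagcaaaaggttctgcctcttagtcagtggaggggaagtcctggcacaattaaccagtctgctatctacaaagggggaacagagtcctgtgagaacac
In the Ifit1 window, bases 147 to 156 and 166 to 175 match the ISRE letters, and in the Rsad2 window bases 131 to 140 do. The Ifit2 window, 1 of 2 listed for that gene and the one with a match, has GAS letters at bases 10 to 18 and no ISRE letters. The windows of Ifi44l and Ms4a4c hold neither. No ISRE match overlapped a GAS match in these windows. Of the 39 genes, 30 had a listed promoter, Isg15 and Ifi44 among them. ISRE letters stood in 14 of these 30 (46.7%), against 3.99% of 27025 gene symbols with a window of that length, and GAS letters in 7 (23.3%), against 9.55%. A match describes the letters and is not evidence of binding.

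Values are log2 signals that the authors normalized together. Array medians lay between 4.05 and 4.22, and arrays correlated at 0.958 to 0.995. In 9 arrays the genes' relative log expression, the deviation of each gene from its median over arrays, spread unusually widely. Its interquartile range exceeded 0.4 in these, where the lowest array had 0.2. They were 3 high-dose arrays of the exposure (replicates 1, 6 and 13), 1 control (7), 4 low-dose (4, 5, 7 and 15) and 1 high-dose (12) of the recovery. Blood markers were present, with Alas2 (erythroid) at 13.8, Pf4 (platelets) at 12.9 and S100a9 (neutrophils) at 12.6, each a mean over 72 arrays. A mean signal belongs to 1 probe set, so levels of different genes below are not set against each other.

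By role, the sensors were Ifih1 (mean log2 signal over 72 arrays 6.97) and Dhx58 (5.98), both RNA helicases of the RIG-I family, Zbp1 (6.99), a sensor of Z-form nucleic acids, and Eif2ak2 (4.64, near the median of all signals, 4.14), the RNA-activated kinase PKR. The signalling factors were Irf1 (8.14), Irf7 (10.01), Irf9 (7.47) and Stat2 (5.21). The 2',5'-oligoadenylate synthetase family, which activates RNase L, was measured by Oas1a (7.64), Oas2 (7.35), Oas3 (8.41) and the related Oasl1 (6.49) and Oasl2 (4.17). The Ifit proteins, which bind foreign RNA, were measured by Ifit1 (8.37), Ifit2 (7.97) and Ifit3 (5.96).

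Effectors that restrict viruses directly included the dynamin-like GTPases Mx1 (4.15, at the median of all signals) and Mx2 (4.65), the tether Bst2 (5.38) and the membrane protein Ifitm3 (11.11). They also included the nucleotide enzymes Rsad2 (viperin, 13.27) and its neighbour Cmpk2 (6.27), the exonuclease Isg20 (13.01), Samd9l (9.31) and the guanylate-binding proteins Gbp2 (8.41) and Gbp3 (6.22). Rsad2 and Isg20 lay close to the top of the signal scale, where differences can be compressed. Only RNA was measured, and whether the effector proteins, Mx1 and Mx2 among them, were functional in Balb/c mice was not tested. A further group acts through ubiquitin, ISG15 or ADP-ribose: the ISG15 protease Usp18 (6.72), the ligase Herc6 (5.74), Trim30a (7.71), Parp9 (7.76), its partner Dtx3l (7.72) and Parp14 (6.59). The remaining members were Ifi44l (5.92), the apoptosis-linked Xaf1 (7.40), Rtp4 (8.35), the membrane protein Ms4a4c (8.15) and the secreted glycoprotein Lgals3bp (7.58).

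After exposure to the high dose, none of the 37 genes differed from control by limma at an adjusted p under 0.05, a threshold that 0.0238% of the 12580 genes passed. At an unadjusted p under 0.05 there were 2, both higher, beside 9.47% of all genes tested. The smallest p belonged to Dtx3l (0.20 ± 0.08 log2 units, SE, adjusted p = 0.414), followed by Dhx58 (0.18 ± 0.08, 0.451) and Ms4a4c (-0.18 ± 0.09, 0.534), none of them past the threshold. Dtx3l ranged from 7.31 to 7.72 with a median of 7.54 in controls and from 7.38 to 7.97 with a median of 7.77 at the high dose. The groups overlapped, with 8 of 15 high-dose arrays above every control. The median difference over the 37 genes was 0.03, against -0.02 over all genes tested.

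After exposure to the low dose, 2 members were higher than in controls and 0 were lower, where 1.11% of all genes tested were called higher. Ifi44l, an interferon-induced gene of little-known function, ranged from 4.71 to 5.80 in the 7 controls with a median of 5.25, and from 5.37 to 6.58 at the low dose with a median of 6.08. Most low-dose arrays stood clear of the controls, 12 of 15 lying above every one. The rise was 0.75 ± 0.16 log2 units, or 1.68-fold (limma, adjusted p = 0.00437). A dimmer probe set of Ifi44l, at a mean of 5.35, gave 0.67.

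The other member called at the low dose was Ms4a4c, a relative of the B cell antigen CD20. It ranged from 7.59 to 8.58 in controls with a median of 7.72, and from 7.97 to 8.47 at the low dose with a median of 8.23. The groups overlapped, because control replicates 1 and 3 stood at 8.58 and 8.34 while the other 5 controls lay below every low-dose array. The rise was 0.34 ± 0.09 (adjusted p = 0.0334), and 0 low-dose arrays lay above every control. Its other probe set gave 0.42. Both are of kinds that the array maker marks as able to match related transcripts, so other Ms4a4 genes may add to the signal.

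Dhx58 came next in order of p, at 0.26 ± 0.08 (adjusted p = 0.0638), not past the threshold. It ranged from 5.28 to 5.93 in controls and from 5.62 to 6.23 at the low dose, with 8 of 15 arrays above every control. At an unadjusted p under 0.05 there were 4 members, all higher, beside 12.4% of all genes tested. In sign, 32 of the 37 were higher than control, with a median of 0.10 against 0.0019 over all genes tested, of which 50.7% were higher.

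Some blood cell markers differed at the low dose as well. Of 17 monocyte markers 6 were called higher, among them Mpeg1, Cd68 and Csf1r, and of 15 B cell markers 5, while 0 of 14 platelet markers passed and all 14 were lower in sign. Of 16 T cell markers 1, Trat1, was called lower and 2 were higher in sign, and 0 of 10 NK cell and 0 of 12 neutrophil markers passed. The mean of the monocyte markers, as a deviation from the 72-array mean, ran from -0.61 to 0.0766 in controls and from -0.187 to 0.339 at the low dose, and that of the B cell markers from -1.39 to 0.376 and from -0.475 to 0.44. Control replicates 1 and 3, the ones with high Ms4a4c, had B cell means of 0.357 and 0.376, where the other 5 controls lay at or below -0.438. In a bulk sample, fewer cells of a type and less RNA per cell cannot be told apart.

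With the means of 9 cell marker lists as covariates the count was 0: Ifi44l was 0.31 (adjusted p = 0.733) and Ms4a4c -0.04 (0.974). Calls over all genes tested fell from 164 to 9 as well. The Ifi44l call was lost without control replicate 5 (adjusted p = 0.0545). The Ms4a4c call was lost when any of control replicates 2, 4, 5, 6 and 7 or low-dose replicates 2, 3, 9 and 14 was left out (adjusted p up to 0.192), and Dhx58 passed without control replicate 1 or low-dose replicate 5, 8 or 12 (down to 0.0213).

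**Figure D1:**
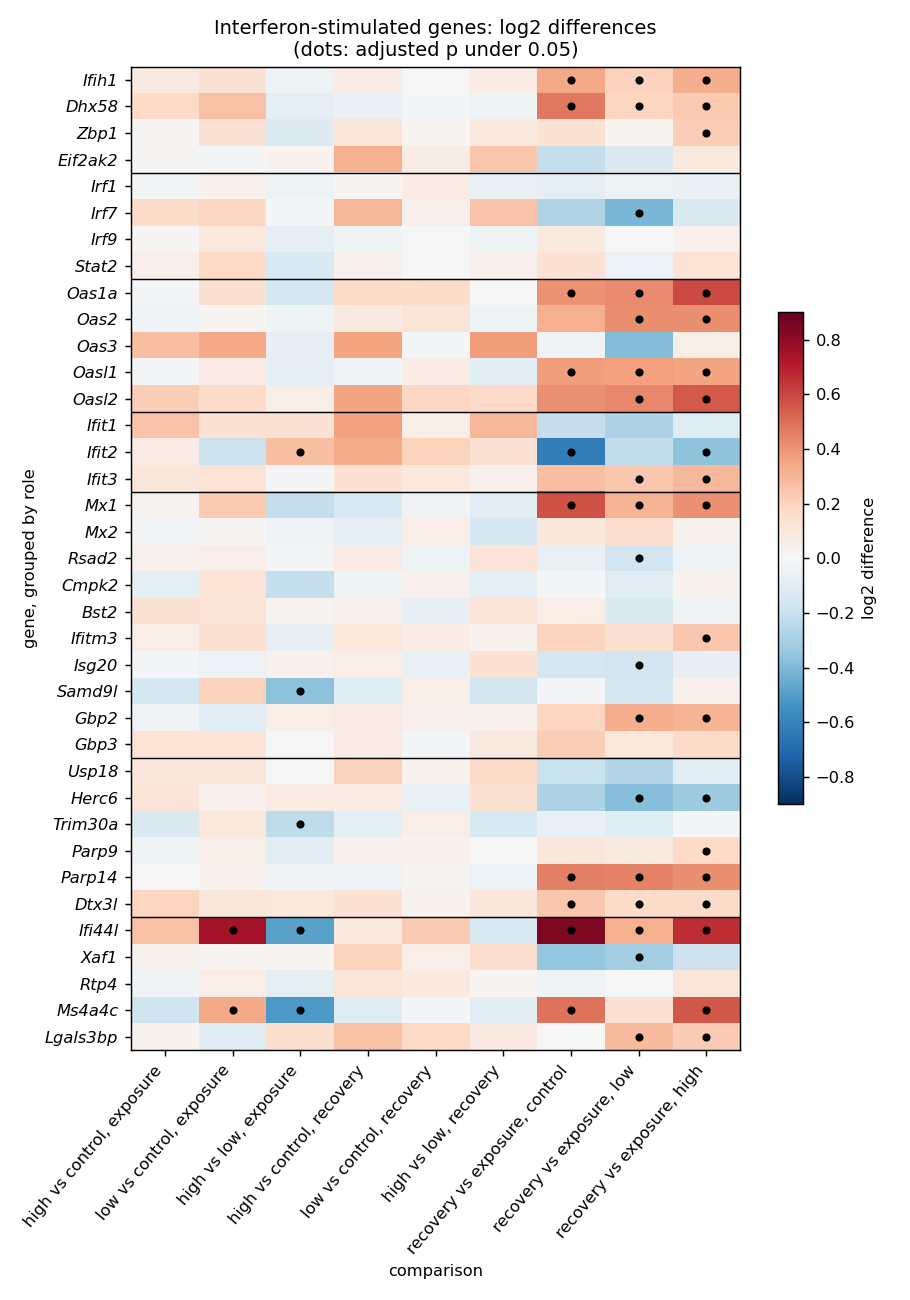
Log2 difference of each of the 37 genes (rows, grouped by role from sensors at the top to other members at the bottom) in 9 comparisons (columns), with red for higher and blue for lower in the first-named group and a dot where the adjusted p was under 0.05. The 3 columns of recovery against exposure hold 10, 18 and 19 dots, and the 4 columns that compare a dose with control hold 2, both after the low-dose exposure.

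**Figure D2:**
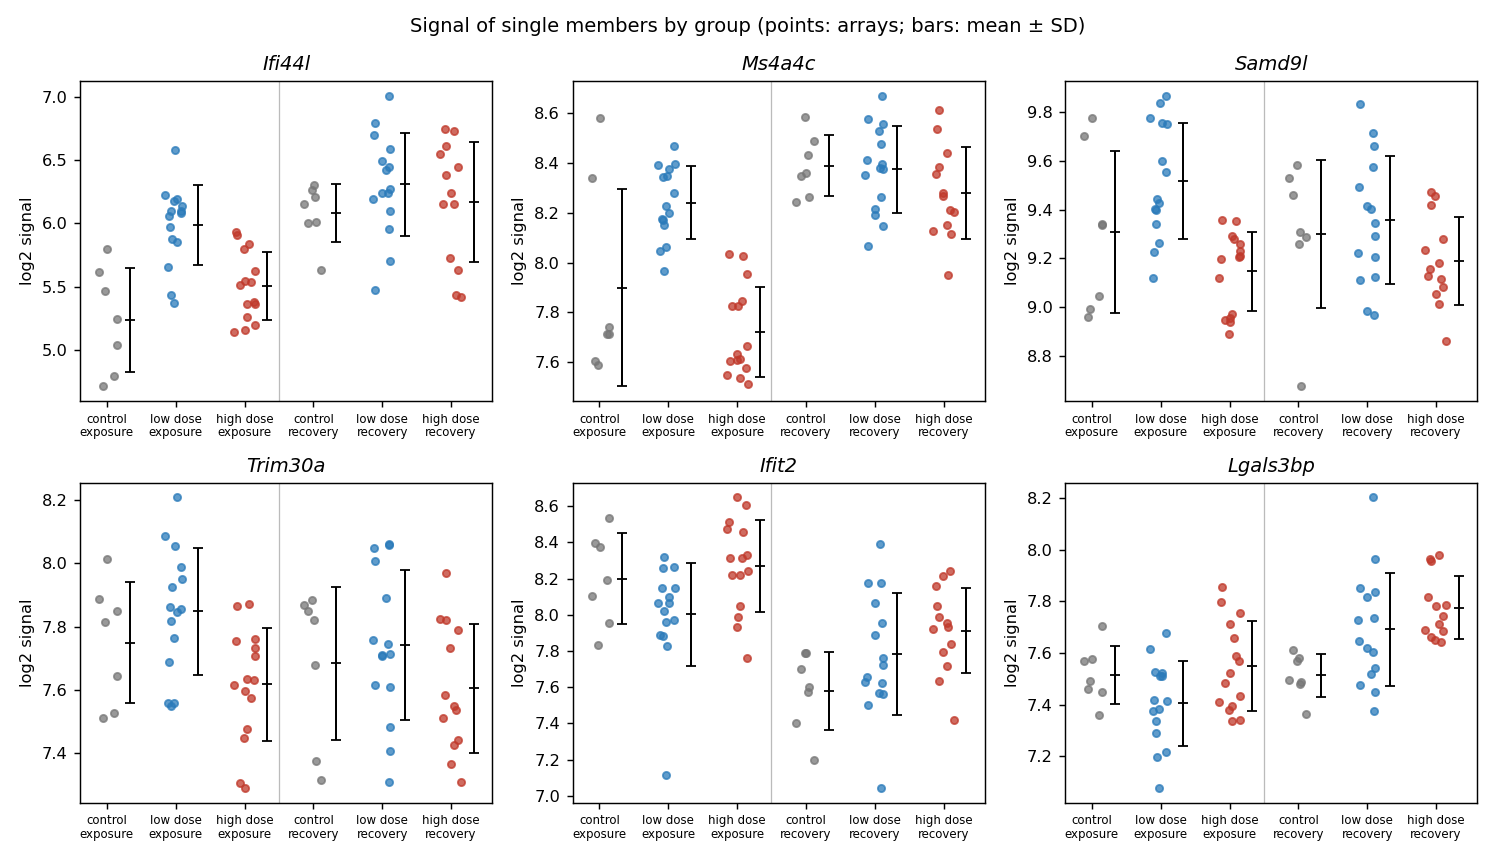
Log2 signal of 6 members in each array (points) by group, with the mean and SD beside them as bars. Within the exposure, 12 of 15 low-dose arrays lie above every control for Ifi44l and 0 for Ms4a4c, and all 13 high-dose arrays of the recovery lie above the 7 recovery controls for Lgals3bp.

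Between the doses after exposure, 4 members were lower and 1 was higher at the high dose. Of all genes tested, 12.6% were called lower and 6.02% higher, so the members' shares of 10.8% and 2.7% lay near or below those of all genes. This comparison uses the same low-dose arrays as the one with control. Ms4a4c ranged from 7.51 to 8.04 with a median of 7.63 at the high dose, where the low-dose arrays ran from 7.97 to 8.47. The groups scarcely overlapped, 13 of 15 high-dose arrays lying below every low-dose array, and the difference was -0.52 ± 0.07 (limma, adjusted p = 4.618e-07).

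Ifi44l was also lower at the high dose, by 0.48 log2 units in size (-0.48 ± 0.13, adjusted p = 0.00526), with arrays from 5.15 to 5.94 and 6 of 15 below every low-dose array. Samd9l, an antiviral and growth-restraining protein, ranged from 8.89 to 9.36 with a median of 9.21 at the high dose and from 9.12 to 9.87 with a median of 9.45 at the low dose. The groups overlapped, with 5 arrays below every low-dose array, and the difference was -0.37 ± 0.08 (adjusted p = 0.0015). Trim30a, a tripartite-motif protein, was lower by a smaller amount, -0.23 ± 0.07 (0.0242), with high-dose arrays from 7.29 to 7.87 and low-dose arrays from 7.55 to 8.21. Without high-dose replicate 6 it was not past the threshold (0.0512), and the count of called members was 3. It was not past the threshold either with the arrays of narrow relative log expression alone (0.144).

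Ifit2 moved the other way. It ranged from 7.76 to 8.65 with a median of 8.31 at the high dose and from 7.12 to 8.32 with a median of 8.07 at the low dose. The groups overlapped broadly, and 6 high-dose arrays exceeded the whole low-dose range. The difference was 0.27 ± 0.10 (adjusted p = 0.0406). It was not past the threshold without any 1 of low-dose replicates 1, 3, 9, 10, 13 and 14 or high-dose replicates 6, 7, 9, 10, 14 and 15 (up to 0.101), nor with each array centred on its median (0.0775) or with no filter on low values (0.0506).

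Cell markers differed widely between the doses: 12 of 17 monocyte and 14 of 15 B cell markers were lower at the high dose, and 11 of 14 platelet and 7 of 15 erythroid markers were higher. The monocyte mean ran from -0.461 to 0.00351 in high-dose and from -0.187 to 0.339 in low-dose arrays, and the platelet mean from -0.159 to 0.473 and from -0.663 to 0.162. With cell marker covariates 0 members were called between the doses, and calls over all genes tested fell from 2345 to 52. Ifit2 was then -0.0053 (adjusted p = 0.988), Ms4a4c -0.18 (0.184), Samd9l -0.13 (0.537), Trim30a -0.12 (0.571) and Ifi44l -0.28 (0.381). The median difference over the members was -0.04, with the sign turned after quantile normalization (0.0011) and cyclic loess (0.03). In this comparison 1 of 5 calls was higher, against 3 of 7 under quantile normalization and 3 of 6 under cyclic loess.

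After 2 weeks of recovery no member differed with dose. The shares of all genes called were 0.429% for the high dose against control, 0% for the low dose against control and 0% for high against low dose. At an unadjusted p under 0.05, limma gave 4, 1 and 5 members in these comparisons, beside 10.9%, 2.34% and 14% of all genes tested. The first 2 share their 7 controls.

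Lgals3bp, a secreted glycoprotein also known as Mac-2 binding protein, had the smallest p for the high dose. It ranged from 7.36 to 7.61 in recovery controls with a median of 7.50, from 7.37 to 8.20 at the low dose with a median of 7.65, and from 7.64 to 7.98 at the high dose with a median of 7.74. All 13 high-dose arrays and 9 of 15 low-dose arrays lay above every control. The differences were 0.26 ± 0.08 (adjusted p = 0.114) for the high dose and 0.18 ± 0.08 (0.9998) for the low dose, not past the threshold. The high-dose difference did pass after quantile normalization (0.29, adjusted p = 0.0334), after cyclic loess (0.30, 0.0274) and with array weights (0.27, 0.0267). Platelet markers were also higher in the high-dose recovery arrays, 4 of 14 past the threshold and all 14 in sign, with a mean from -0.469 to 0.282 against -0.575 to -0.0173 in controls. With cell marker covariates Lgals3bp was 0.12 (adjusted p = 0.832) in the high-dose comparison.

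Next for the high dose against control were Eif2ak2 (0.32 ± 0.11, adjusted p = 0.240) and Ifit2 (0.33 ± 0.12, 0.267). Eif2ak2 ranged from 4.03 to 4.91 in controls and from 4.33 to 5.20 at the high dose, with 3 of 13 arrays above every control. For the low dose Ifit2 (0.20 ± 0.12) and Ifi44l (0.23 ± 0.16) followed Lgals3bp, both at an adjusted p of 0.9998. Between the doses the smallest p belonged to Eif2ak2 (0.25 ± 0.09, 0.263), Isg20 (0.13 ± 0.05, 0.286) and Ifit1 (0.30 ± 0.14, 0.331). Ifi44l, which stood apart at the low dose after exposure, ran from 5.64 to 6.30 in recovery controls, from 5.47 to 7.01 at the low dose and from 5.42 to 6.75 at the high dose, and the 3 ranges overlapped.

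Whether a dose effect differed between the collections was tested as the effect after recovery minus that after exposure. No member passed for the high dose, where 0.00795% of all genes did, or for the low dose, where 0.0238% did. At an unadjusted p under 0.05 there were 2 and 5 members, beside 3.43% and 8.46% of all genes tested. For the low dose Ms4a4c gave -0.36 ± 0.13 (limma, adjusted p = 0.220), Lgals3bp 0.29 ± 0.11 (0.257) and Dhx58 -0.28 ± 0.11 (0.320). With array weights Ms4a4c passed (-0.50, 0.00427). For the high dose the smallest p belonged to Dhx58 (-0.24 ± 0.11), Lgals3bp (0.23 ± 0.11) and Eif2ak2 (0.31 ± 0.16), each at 0.9997. A call at the low dose after exposure and none after recovery was therefore not shown to be a difference between the collections.

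More members were called between the collections than between the doses, and so were more of all genes tested. In controls, 9 members were higher and 1 was lower at the second collection, beside 22.5% and 13.6% of all genes tested. At the low dose 13 were higher and 5 lower after recovery (26.2% and 17.9% of all genes), and at the high dose 17 and 2 (29.4% and 19.8%). In either direction, 27%, 48.6% and 51.4% of the 37 were called in these 3 comparisons, against 36.1%, 44.1% and 49.2% of all genes. The 3 comparisons use different arrays. Time, age and, for the exposed mice, the end of exposure change together between the collections and cannot be told apart. In all 3, 8 members were called higher (21.6% of the 37, against 18.8% of all genes): Ifih1, Dhx58, Oas1a, Oasl1, Mx1, Parp14, Dtx3l and Ifi44l. No member was called lower in all 3, where 7.77% of all genes were. Of the 8, Ifih1, Oas1a, Oasl1 and Dtx3l lost the call in controls under quantile normalization and under cyclic loess. Their adjusted p was then 0.0761 to 0.232 (limma). Dhx58 lost its low-dose call under both scalings (0.060 and 0.051).

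Among the sensors, Ifih1 and Dhx58 rose in every dose group. Dhx58, a regulator of the RIG-I helicases, ran from 5.28 to 5.93 in controls of the first collection and from 6.01 to 6.30 in those of the second, so that the groups did not overlap. The difference was 0.47 ± 0.09 in controls (limma, adjusted p = 3.2e-05), 0.20 ± 0.06 at the low dose (0.00738) and 0.24 ± 0.06 at the high dose (0.0016). Ifih1 gave 0.34 ± 0.11, 0.21 ± 0.08 and 0.32 ± 0.08 in the same order, and Zbp1 passed at the high dose alone (0.22 ± 0.08). A dimmer probe set of Zbp1, at a mean of 5.51, gave -0.06 at the high dose.

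Of the 5 OAS genes, 2 rose in controls and 4 at each dose. Oas1a ran from 6.55 to 8.09 with a median of 7.34 at the high dose after exposure, and from 7.31 to 8.44 with a median of 8.03 after recovery. Its ranges overlapped, with 5 of 13 recovery arrays above every exposure array, at a difference of 0.60 ± 0.12 (adjusted p = 1.65e-05). It was 0.43 ± 0.11 at the low dose and 0.41 ± 0.16 in controls (0.0433). Oas2 gave 0.42 ± 0.09 at the low and 0.42 ± 0.10 at the high dose, Oasl1 between 0.35 and 0.38 in all 3 dose groups, and Oasl2, whose signal lay near the median of all probe sets, 0.43 ± 0.17 and 0.55 ± 0.18 at the low and high dose. Oas3, the large synthetase, did not pass in any comparison.

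In the Ifit family the members went in different directions. Ifit2 ran from 7.84 to 8.53 in controls of the first collection and from 7.20 to 7.79 in those of the second, with no overlap, and fell by 0.62 ± 0.14 (adjusted p = 0.000387). It fell by 0.36 ± 0.10 at the high dose (0.00218). Ifit3 rose by 0.24 ± 0.10 at the low and 0.29 ± 0.10 at the high dose, and Ifit1 did not pass in any comparison.

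Among the direct-effector genes, Mx1 RNA rose in all 3 dose groups, by 0.57 ± 0.15 in controls, 0.30 ± 0.10 at the low dose and 0.41 ± 0.10 at the high dose. All 7 controls of the second collection, from 4.17 to 4.79, lay above those of the first, from 3.52 to 4.15, at signals near the median of all probe sets. Gbp2 rose at both doses (0.32 ± 0.09 and 0.30 ± 0.09) and Ifitm3 at the high dose (0.24 ± 0.07). Rsad2 and Isg20 fell at the low dose, by 0.18 ± 0.05 and 0.17 ± 0.05 log2 units. Because their signals stand near the top of the scale, other probe sets of Rsad2 were looked at: one with a mean of 12.52 gave -0.13 in that comparison and -0.03 in controls, and one with a mean of 11.55 gave -0.78 and -0.66, where the brightest gave -0.18 and -0.07. The probe sets of Rsad2 thus disagreed in size.

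In the ubiquitin and ADP-ribose group, Parp14 had the smallest p at the low dose. It ran from 6.09 to 6.69 with a median of 6.34 after exposure and from 6.42 to 7.15 with a median of 6.96 after recovery, with 10 of 15 arrays above every exposure array (0.45 ± 0.07, adjusted p = 1.951e-07). It rose by 0.42 ± 0.07 at the high dose and 0.45 ± 0.10 in controls. Dtx3l rose in all 3 (0.24, 0.17 and 0.17), Parp9 at the high dose (0.18 ± 0.07), and Herc6 fell at the low (-0.38 ± 0.09) and high dose (-0.32 ± 0.09). Other probe sets of Herc6 gave -0.36 and -0.31 (mean 5.45), -0.10 and -0.03 (4.84) and -0.38 and -0.51 (2.97). Of the transcription factors, Irf7 fell at the low dose (-0.41 ± 0.14, 0.0118).

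Ifi44l rose by 0.84 ± 0.19 in controls (adjusted p = 0.000238), 0.32 ± 0.13 at the low dose and 0.67 ± 0.13 at the high dose. Its dimmer probe set, at a mean of 5.35, gave 0.65, 0.115 and 0.44 in the same order. At the low dose that was an unadjusted p of 0.341 (limma). Ms4a4c rose by 0.49 ± 0.11 in controls and 0.56 ± 0.07 at the high dose (adjusted p = 5.316e-09), where 12 of 13 recovery arrays lay above every exposure array; at the low dose it was 0.13, not past the threshold. Lgals3bp rose at both doses (0.29 ± 0.06 and 0.23 ± 0.06), and Xaf1 fell at the low dose (-0.31 ± 0.11). A dimmer probe set of Xaf1, at a mean of 4.67, gave -0.11 at the low dose. The 12 members that passed in 0 of the 11 comparisons were Eif2ak2, Irf1, Irf9, Stat2, Oas3, Ifit1, Mx2, Cmpk2, Bst2, Gbp3, Usp18 and Rtp4.

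Some of these calls turned on single arrays or settings. In controls the count was 6 rather than 10 without recovery replicate 3. Ifih1 was then lost (adjusted p = 0.0548), Oasl1 without exposure replicate 7 or recovery replicate 1 or 3 (up to 0.0721), Dtx3l without exposure replicate 2, 5 or 7 or recovery replicate 2, 3 or 7 (up to 0.128), and Oas1a without exposure replicate 3, 4, 5 or 7 or recovery replicate 1, 3, 4 or 7 (up to 0.123). Leaving out the 9 arrays of wide relative log expression, 4 of them low-dose recovery arrays, took the low-dose count from 18 to 7. Over all genes tested it went from 5549 to 4083. The directions also shifted with scaling. Of the called members 9 of 10 in controls, 13 of 18 at the low dose and 17 of 19 at the high dose were higher, against 6 of 9, 9 of 19 and 13 of 17 under quantile normalization and 5 of 9, 8 of 20 and 11 of 15 under cyclic loess. The median over the members at the low dose was 0.02, and -0.04 and -0.06 under these scalings.

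Blood cell markers changed between the collections in every dose group. Of 15 erythroid markers 10 were lower in controls, 10 at the low dose and 11 at the high dose, and B cell markers were higher in 15, 14 and 15 of 15. The erythroid mean ran from -0.178 to 0.5 in controls of the first collection and from -0.666 to -0.193 in the second. Of 17 monocyte markers, 11, 5 and 10 were higher in controls, low and high dose. With cell marker covariates the count of called members was 1 rather than 10 in controls (Parp14 remained of those above). It was 13 rather than 18 at the low dose, with 11 of the 13 higher, and 10 rather than 19 at the high dose. Over all genes tested, calls fell from 4542 to 362, from 5549 to 3587 and from 6184 to 2574 in the same order. The signs of Rsad2 (0.0071) and Irf7 (0.11) at the low dose and of Ms4a4c in controls (-0.16) were turned.

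**Figure D3:**
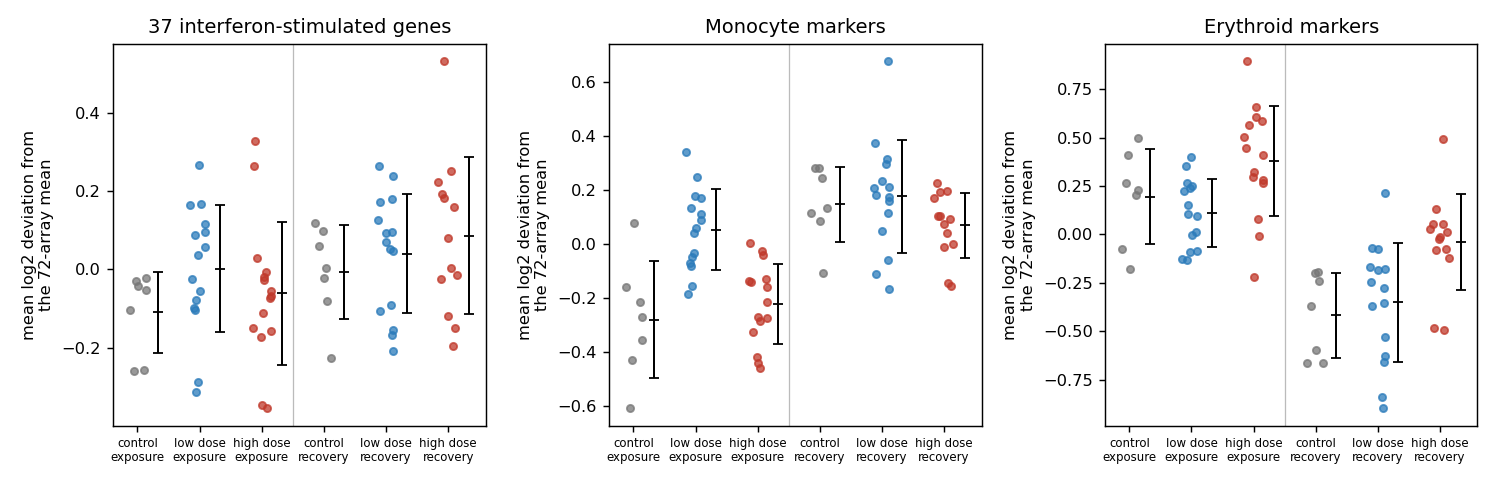
Mean log2 deviation from the 72-array mean in each array (points), with the group mean and SD as bars, for the 37 genes (left), the monocyte markers (middle) and the erythroid markers (right). The group means of the 37 genes lie between -0.11 and 0.0858 with overlapping ranges, while the erythroid mean falls from 0.194 to -0.418 in controls.

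The rest of the pathway was read from lists of interferon genes, receptors and kinases, upstream sensors, inhibitors and other induced genes. Of 14 upstream genes 2 were higher after the low-dose exposure: Irf5, a transcription factor downstream of Toll-like receptors (0.45 ± 0.10, limma, adjusted p = 0.00507), and Tlr7, the receptor for single-stranded RNA (0.30 ± 0.08, 0.0319). With cell marker covariates neither passed (0 of 14). None of the other lists had a member past the threshold there, and none of the 5 lists had one after the high-dose exposure or in the 3 dose comparisons of the recovery. Of 3 interferon genes measured, Ifna5 was higher after the high-dose than after the low-dose exposure (0.40 ± 0.09, 0.00123), at a mean signal of 3.96, below the median of all values.

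Between the doses after exposure, 12.6% of all genes tested were lower at the high dose and 6.02% higher. Of 58 other interferon-induced genes, 19 were lower and 1, Igtp, was higher (0.16 ± 0.05). The lower ones of smallest p were Helz2 (-0.43 ± 0.07), Ly6e (-0.45 ± 0.10), the nucleotide hydrolase gene Samhd1 (-0.37 ± 0.08) and Tor1aip1 (-0.31 ± 0.07). Of the upstream genes 5 of 14 were lower, among them Irf5 (-0.44 ± 0.08), the Toll-like receptor chaperone gene Unc93b1 (-0.36 ± 0.06), the DNA-sensing adaptor gene Sting1 (-0.24 ± 0.05) and the kinase gene Tbk1 (-0.30 ± 0.09). Of 8 receptors and kinases Tyk2 was lower (-0.15 ± 0.05), but 0 were called under quantile normalization, centring, cyclic loess or without the widely spread arrays. Of 8 inhibitors Samhd1, which stands in both lists, and the phosphatase gene Ptpn6 (-0.24 ± 0.06) were lower. With the 9 widely spread arrays left out, 8 of the 58 were lower and 2 higher, and calls over all genes tested fell from 2345 to 1152. With cell marker covariates 0 members of these lists were called in that comparison.

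Between the collections, 26 of the 58 other induced genes were higher and 5 lower in controls, 27 and 9 at the low dose and 31 and 5 at the high dose, beside the shares of all genes given above (22.5% and 13.6%, 26.2% and 17.9%, 29.4% and 19.8%). Cyclic loess gave 24 and 6, 24 and 14, and 28 and 12, and centring on the median gave 26 and 1 in controls. With cell marker covariates the counts were 2 and 1, 19 and 8, and 16 and 3. Slfn5, a member of the interferon-induced Schlafen family, rose by 0.93 ± 0.13 in controls and 0.72 ± 0.09 at the low dose, and Helz2 by 0.64 ± 0.11 in controls and 0.72 ± 0.08 at the high dose. Of the upstream genes 8, 7 and 8 of 14 were higher, led by the ubiquitin ligase gene Trim25 (0.78 ± 0.10 in controls). Of the inhibitors 5 of 8 were higher and 1, the cytokine-signalling suppressor gene Socs1, lower in each (-0.40 ± 0.08 in controls). Of the 3 interferon genes none passed in controls, where all 3 were lower in sign. Ifna5 fell at the low dose (-0.21 ± 0.09, adjusted p = 0.0459; not past the threshold under any other scaling) and at the high dose (-0.48 ± 0.09), where Ifna1 fell as well (-0.25 ± 0.10). Of the 8 receptors and kinases 1 was higher and 0 lower in controls, 1 and 2 at the low dose and 1 and 1 at the high dose. The interferon receptor subunit gene Ifnar2 fell at the low (-0.43 ± 0.08) and high dose (-0.41 ± 0.08).

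Within groups, the members varied together from array to array. After each group's mean was subtracted, the 666 pairs of members had a median Pearson correlation of 0.373 over the 72 arrays, and 32.7% were above 0.5, beside a median of 0.0275 and 11% for all pairs of tested genes. These points share arrays, normalization and cell makeup, and the values are descriptions. The closest pairs were Ifit1 and Usp18 (Pearson's r 0.922, Spearman's rho 0.911, n = 72), Rsad2 and Isg20 (0.905 and 0.889) and Irf7 and Ifit1 (0.88 and 0.844). Ifit1 and Usp18 correlated at 0.939 in the 37 exposure arrays and at 0.918 in the 35 recovery arrays. Against the mean of the other members, Rtp4 (0.866), Ifih1 (0.865), Usp18 (0.835) and Oas1a (0.829) were closest. The least like the rest were Ifit2 (0.0342) and Isg20 (0.164). Ifit2 correlated with its family members Ifit1 and Ifit3 at -0.0551 and 0.202.

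Different members followed different cell markers. Of 7 marker lists, the erythroid one was the closest for 12 of the 37 members (31.9% of all genes tested) and the monocyte one for 11 (5.35%). Within groups Rsad2 correlated with the erythroid mean at r = 0.84 (rho 0.819, n = 72; 0.826 without the 2 arrays farthest from the median), which was rank 114 of 12580 genes. Isg20 (0.806), Oas3 (0.751), Irf7 (0.74), Usp18 (0.658), Ifit1 (0.656) and Xaf1 (0.606) came next. The ones that fell from exposure to recovery at the low dose, Rsad2, Isg20, Irf7, Xaf1 and Herc6, were all closest to the erythroid list of these 7. In that comparison 10 of 15 erythroid markers were called lower too. The share of all lower genes closest to that list was not computed, and a link was not tested. Herc6 correlated at 0.431 with erythroid markers (rank 914) and at 0.428 with plasma cell markers (rank 346), a list outside the 7. Ifit2 followed the platelet mean (0.80, rho 0.764, rank 169), at 0.809 in the exposure and 0.793 in the recovery arrays, and Lgals3bp did so less closely (0.542).

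Of the lists compared, Ms4a4c (0.699, rank 82), Samd9l (0.661, rank 185), Trim30a (0.647) and Ifi44l (0.629) were closest to the monocyte mean. These were the 4 members lower at the high dose when both doses were compared after exposure. In that comparison 12 of 17 monocyte markers were called lower too. The share of all lower genes closest to the monocyte list was not computed, and a link was not tested. Samd9l stood at rank 11 for plasma cell markers (0.525), a list left out when the closest one was chosen. Ms4a4c correlated with the B cell mean too, at 0.772 in the exposure and 0.316 in the recovery arrays, where Ifi44l gave 0.359 and -0.0575. Irf1 (0.673) and Parp14 (0.626) were closest to T cell markers, as were 37.5% of all genes, at ranks of only 1959 and 2690. For NK cell markers their ranks were 321 and 281, and for monocyte markers 568 and 811. Irf9 (0.606, rank 96) was closest to NK cell markers and Gbp2 (0.553, rank 335) to neutrophil markers. A dimmer probe set of Gbp2, at a mean of 8.06, was closest to T cell markers (0.503), with 0.477 for neutrophil markers. These correlations show which markers a transcript varied with in whole blood and not which cell made it.

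**Figure D4:**
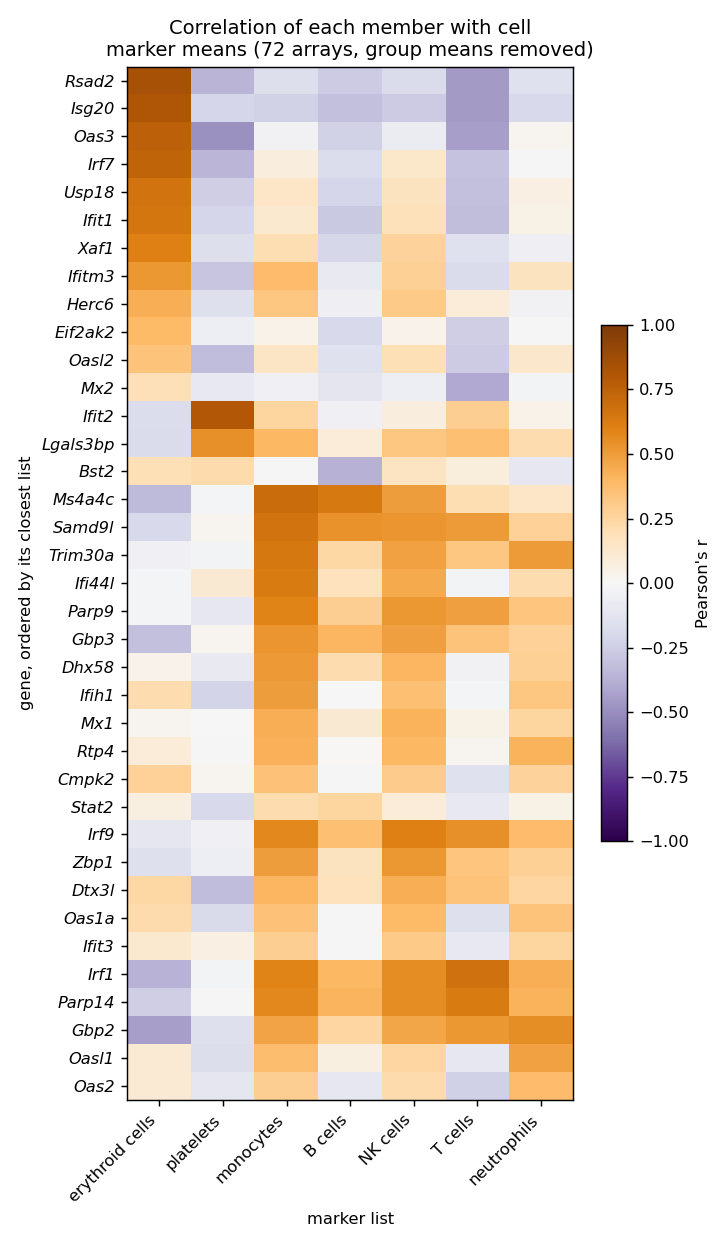
Pearson correlation over 72 arrays, with group means removed, between each of the 37 genes (rows, ordered by closest list) and the mean of 7 cell marker lists (columns). The first 12 rows are closest to erythroid markers, led by Rsad2 at 0.84, and Ifit2 stands out for platelets at 0.80.

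**Figure D5:**
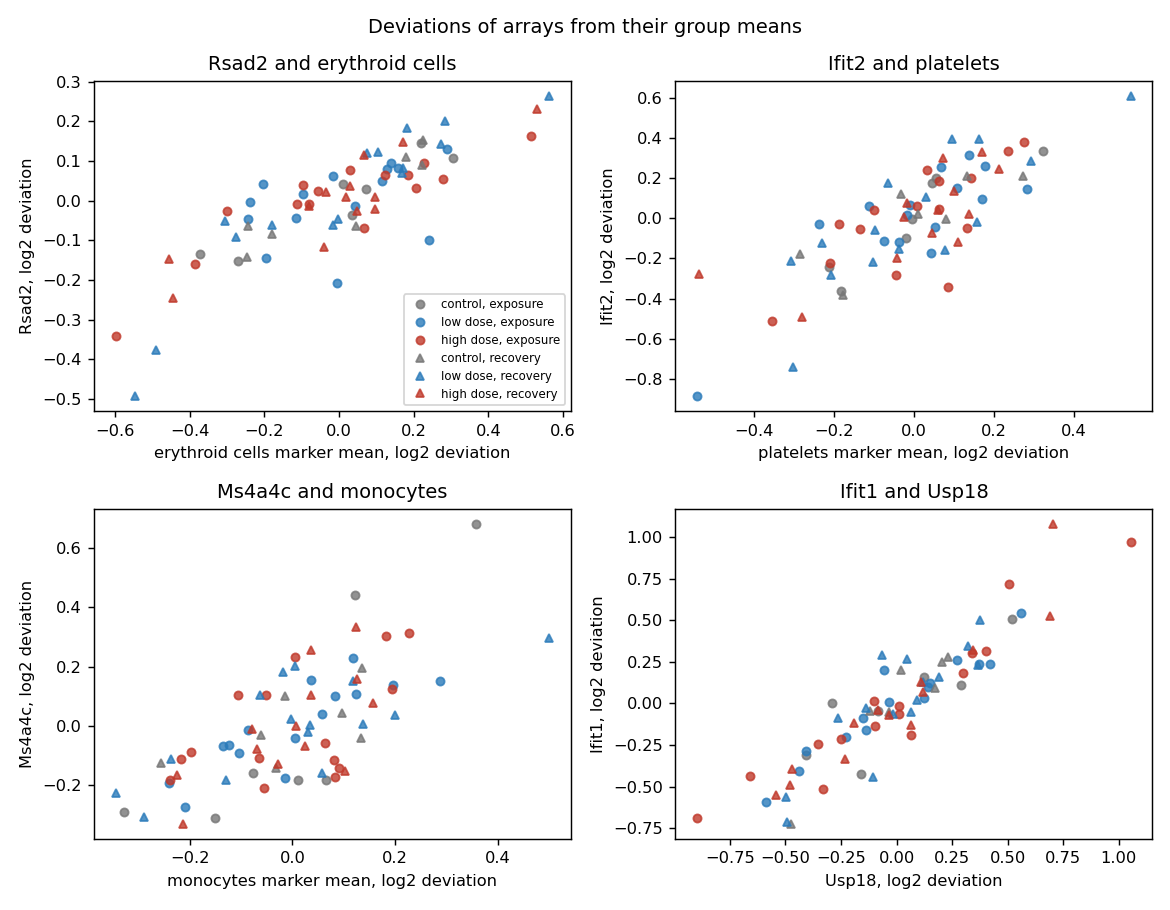
Log2 deviation of each array from its group mean for Rsad2 against erythroid markers, Ifit2 against platelet markers, Ms4a4c against monocyte markers and Ifit1 against Usp18, with colours for dose, circles for exposure and triangles for recovery arrays. Arrays of all 6 groups lie along 1 band in the Ifit1 and Usp18 panel (r = 0.922), and the Ms4a4c panel is the most scattered (r = 0.699).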

How the data were processed

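Whole-blood RNA was globin-depleted, amplified and biotin-labelled, per the labels' protocols. The deposited values are log2 signals that the authors normalized by RMA, per the submitters' processing notes; which RMA software was used is not given in the sources used here. Of 45101 probe sets, 34945 had exactly 1 symbol in the platform annotation, 932 had several and 9160 were unlisted. A gene was tested when its brightest 1-symbol probe set exceeded the median of all values, 4.14, in at least 7 arrays. limma 3.58.1 (R 4.3.3, statmod 1.5.0) fitted 1 mean per group over the 72 arrays (66 residual degrees of freedom), with Benjamini-Hochberg adjustment over 12580 genes and a threshold of 0.05. The script was tested on simulated data. Arrays limit the precision by their number. Log2 differences carry SE. "Arrays above every control" counts arrays outside the other group's range.

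The members, gene lists and tests were chosen with earlier results of these data known. Every member was named with its level; in each comparison up to 12 members past the threshold were named in order of p, or the 3 of smallest p where fewer than 3 passed, and up to 4 genes from other lists. Members named beyond these complete their role group and were chosen after their values were seen, as were genes followed across comparisons. Alternatives were quantile, median and cyclic loess scaling, no low filter, the mean of probe sets, array weights, fewer arrays, a replicate block, cell marker covariates and each array left out. Leaving out the arrays of wide relative log expression was chosen after seeing the data. Promoter sequences are from RefSeq (GRCm38.p6).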

Additional observations from a re-analysis of the deposited data

Results flagged for a closer look

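Of 74 sets of 7 control values (37 genes in both collections), 3 had an array whose gap to the nearest other exceeded the 95% critical value of Dixon's test, where chance alone gives about 1 in 20. Ifit1 was 7.38 in recovery control replicate 5, with the next at 8.05 and the highest at 8.38. Samd9l was 8.67 in recovery control replicate 4, with the next at 9.26. Ifitm3 was 11.11 in exposure control replicate 4, with the next at 10.97 and the lowest at 10.88. None of these 3 genes was called against control.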

How the results depend on the processing

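Counts of called members that moved by more than 1.5 times were these; for each the cause was not tested unless stated. For the low dose against control after exposure (2 members) the count was 1 after centring on the median, 1 with only the arrays compared, 1 with the replicate block, 5 with array weights and 0 with cell marker covariates, and 0 to 3 with single arrays left out. Over all genes tested that comparison gave 164 calls without these changes. Centring gave 95, only the arrays compared 127, the replicate block 224, array weights 1408 and the covariates 9. Between the doses after exposure (5) the member count was 0 with the covariates and 3 to 5 with arrays left out. For the high dose against control it was 1 with the covariates after exposure (Ms4a4c, -0.22), where 235 of all genes were called. After recovery it was 1 under quantile normalization, 1 under cyclic loess and 1 with array weights, where 95, 123 and 430 of all genes were called. In controls between the collections (10) it was 1 with the covariates and 6 to 11 with arrays left out. Recovery against exposure gave 7 at the low dose (18) without the wide arrays, which leaves 11 of 15 recovery arrays, and 10 at the high dose (19) with the covariates. The low-dose effect between collections gave 1 with array weights, where 716 of all genes were called. Of 590 single-gene values under alternatives 530 kept direction and side of the threshold, 48 lost and 6 gained a call, and 6 reversed, all with the cell marker covariates: Ms4a4c at the low dose after exposure (-0.042), in controls between collections (-0.16) and in the low-dose effect between collections (0.022), Ifit2 between the doses after exposure (-0.0053), and Rsad2 (0.0071) and Irf7 (0.11) at the low dose between collections. No scaling moved the median of all genes by over 0.1.

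Same-numbered arrays of both collections correlated at -0.423 to 0.256 in controls, -0.302 to 0.507 at the low and -0.458 to 0.477 at the high dose. Of the recovery arrays, 1 of 7, 3 of 15 and 0 of 13 were closest to their own number. The labels do not say whether replicate numbers follow mice, and correlations between bleeds 2 weeks apart cannot decide it. The replicate block gave the count of 1 above and moved no other count by over 1.5 times. Limits: 7 control arrays at each collection set the precision of every comparison with control, signals near 4.14 (Mx1, Oasl2, Eif2ak2) lie close to the filter, and those at the top of the scale (Rsad2, Isg20) may be compressed.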
